A study of Rattus norvegicus with 2 samples.

Results

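The genes of the mitochondrial respiratory chain were followed in rat bone marrow mesenchymal stem cells (BMSCs) given icariin, a plant flavonoid of Epimedium herbs, and in BMSCs given DMSO, the solvent. Members were selected on the name of the gene: every sequence of the array whose old or current symbol begins with Nduf, Sdha, Sdhb, Sdhc, Sdhd, Uqcr, Cyc1, Cox4 to Cox8 or Atp5. The set itself was proposed with the results of these arrays in view, so all counts and differences below are descriptions of the icariin array against the DMSO array, and no test was made of them. The rule found 120 of the 26419 sequences on the array, which fall into 113 of 24210 genes. Of these genes, 70 encode structural subunits: 32 of complex I, 4 of complex II, 9 of complex III, 9 of complex IV and 16 of complex V. The other 43 are 12 assembly factors, 6 tissue isoforms of cytochrome c oxidase, 19 gene copies and pseudogenes, Atp5if1, Cox7a2l and 4 further genes. These 4 (Emc8, Dmac2l, Upk1a and Garin5b) encode no subunit, and only the symbol that the array gives their sequences matches the rule.

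Each condition was measured on 1 NimbleGen expression array with the dye Cy3, so no difference has a replicate check. The icariin array held RNA of BMSCs given 20 µM icariin for 24 h, per the study's methods, and the DMSO array held RNA of BMSCs given the solvent alone. Both cultures were cells from rat marrow of the limb bones, passaged before use per the study's methods. Their donors are female per the labels and male per the methods. The sources used here do not say how many animals gave the cells of each array.

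The respiratory chain sits in the inner mitochondrial membrane. Complex I takes electrons from NADH and complex II from succinate, both pass them to ubiquinone, complex III moves them on to cytochrome c, and complex IV hands them to oxygen. Complexes I, III and IV pump protons as they do so, and complex V, the ATP synthase, lets the protons flow back and makes ATP. The subunits come from both genomes, since a small set is encoded in mitochondrial DNA and all others in the nucleus. Marrow stromal cells are known to rely much on glycolysis while undifferentiated and to raise mitochondrial respiration as they become osteoblasts.

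Most subunit genes of the chain were lower on the icariin array, in each of the 5 complexes. Of the 70 subunits, 63 were lower and 7 higher, with a median log2 difference (icariin minus DMSO) of -0.40, or 1.32-fold lower. At least 1.5-fold lower were 20 subunits and at least 2-fold lower 5, namely Ndufa9, Ndufs8, Ndufb7, Ndufa6 and Uqcrc2. No subunit was 1.5-fold higher. Differences of under 1.1-fold, in either direction, were found for 10 of the 70. Among all 24210 genes, 51.4% were lower by any amount, 17.8% at least 1.5-fold lower, 16.4% at least 1.5-fold higher, 7.01% lower by 2-fold or more and 6.51% higher by 2-fold or more. Their median was -0.02. Many of these genes are dim, so a narrower background is the 9289 genes that exceeded the receptor level on each array. The receptor level is the 95th percentile of 1489 genes of odorant and pheromone receptors, assumed to be silent in BMSCs, and it was 168 on the icariin array and 148 on the DMSO array (intensities, in arbitrary units). Of those 9289 genes, 53.9% were lower, 14.6% at least 1.5-fold lower, 10.2% at least 1.5-fold higher, 4.44% lower by 2-fold or more and 2.96% higher by 2-fold or more. The subunits' share at least 2-fold lower, 5 of 70, was thus close to that of all 24210 genes and somewhat above that of the 9289. All 70 subunits exceeded the receptor level on each array, but Ndufs4 at 229 on the icariin array was under the 99th percentile of the receptor genes there (265).

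**Figure D1:**
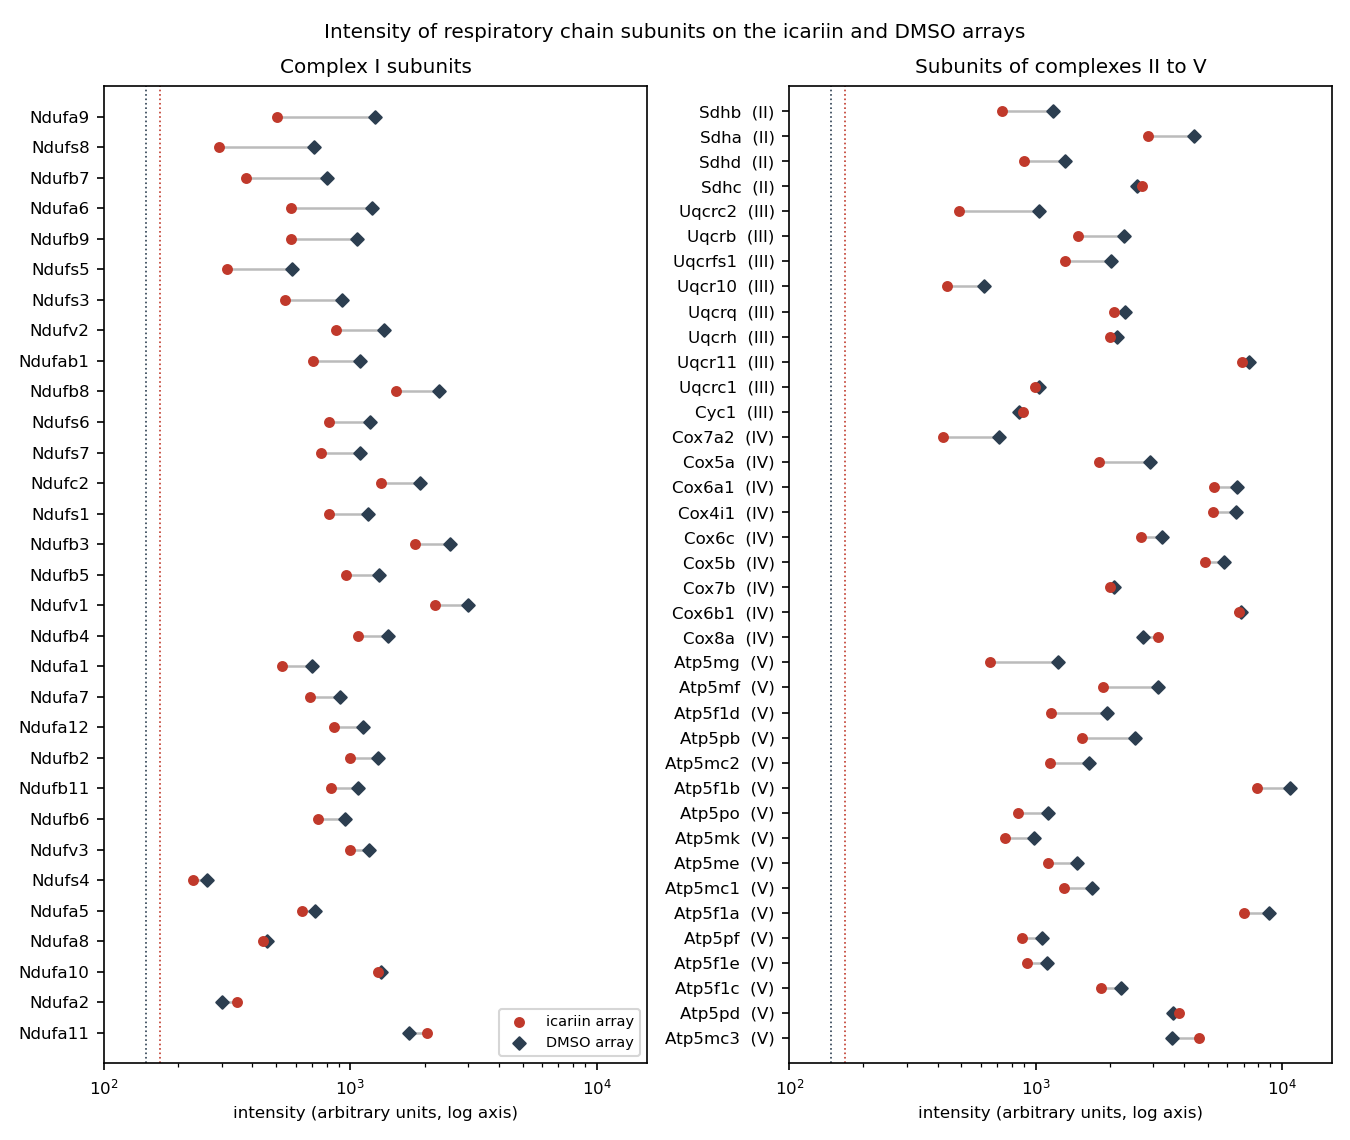
Intensity of 69 of the 70 structural subunits on the icariin array (red circles) and the DMSO array (dark diamonds), on a log axis in arbitrary units, sorted by the difference within each complex; dotted lines mark the receptor level of each array (168 and 148). The icariin value lies left of the DMSO value for 62 of the subunits drawn and right of it for 7.

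Bright genes were slightly lower in general, and the subunits are bright. In the 2 brightest of 10 classes of level, which hold 65 of the 70 subunits, the medians of all genes were -0.10 in the dimmer class and -0.08 in the brighter one, with 57.2% and 57.9% of them lower. The 29 subunits of the dimmer class had a median of -0.52 with 28 lower, and the 36 of the brighter one a median of -0.38 with 31 lower. Over the 1776 genes of the array within the middle part of the subunits' levels, 864 to 2175, the median was -0.10 and 58.4% were lower. A wider window, with the whole range of the subunits' levels from 245 to 9242, held 7760 genes with a median of -0.08. The deposited values are quantile normalized, so all differences are relative to the other genes of the array.

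**Figure D2:**
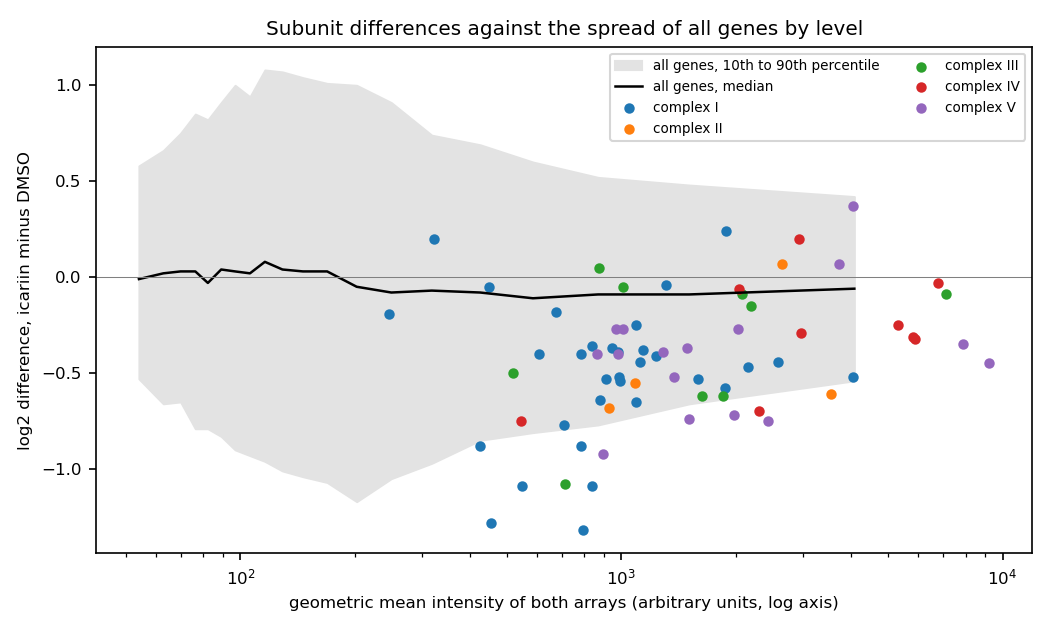
Log2 difference (icariin minus DMSO) of the 70 subunits, coloured by complex, against the geometric mean intensity of both arrays on a log axis; the grey band spans the 10th to 90th percentile of all 24210 genes in 20 classes of level and the black line is their median. Most subunits lie below the black line, and the 5 subunits at least 2-fold lower lie below the band.

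Markers of cell types differed between the cultures as well. Of the 15 macrophage and leukocyte markers listed, 14 were measured, and all 14 were higher on the icariin array, with a median log2 difference of 1.45. With dim values raised to the receptor level of 168, 8 of them were at least 2-fold higher, and 10 as measured. Their summed intensity was 20413 on the icariin array and 6628 on the DMSO array. Of the defining markers, Cd68 read 5597 on the icariin array and 1423 on the DMSO array, and Ptprc, the pan-leukocyte phosphatase, read 192 on the icariin array and 91.9 on the DMSO array, where it was under the receptor level. On the DMSO array 10 of the 14 exceeded the receptor level, and Itgam, Aif1 and Tyrobp did not, as Ptprc did not, while all 14 exceeded it on the icariin array. The 10 marrow stroma markers had a median log2 difference of 0.12, with 7 higher and 3 lower (Thy1, Cd44 and Lepr). Their sum was 136525 on the icariin array and 126346 on the DMSO array, and its brightest terms were Col1a1, Col1a2, Vim and Thy1. Thy1 read 17702 on the icariin array and 20616 on the DMSO array, and Col1a1 39096 and 33819.8. All but Lepr exceeded the receptor level on each array. The part of these markers in the lower subunit values was not tested. In bulk RNA, fewer cells of a type and less RNA per cell cannot be told apart.

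**Figure D3:**
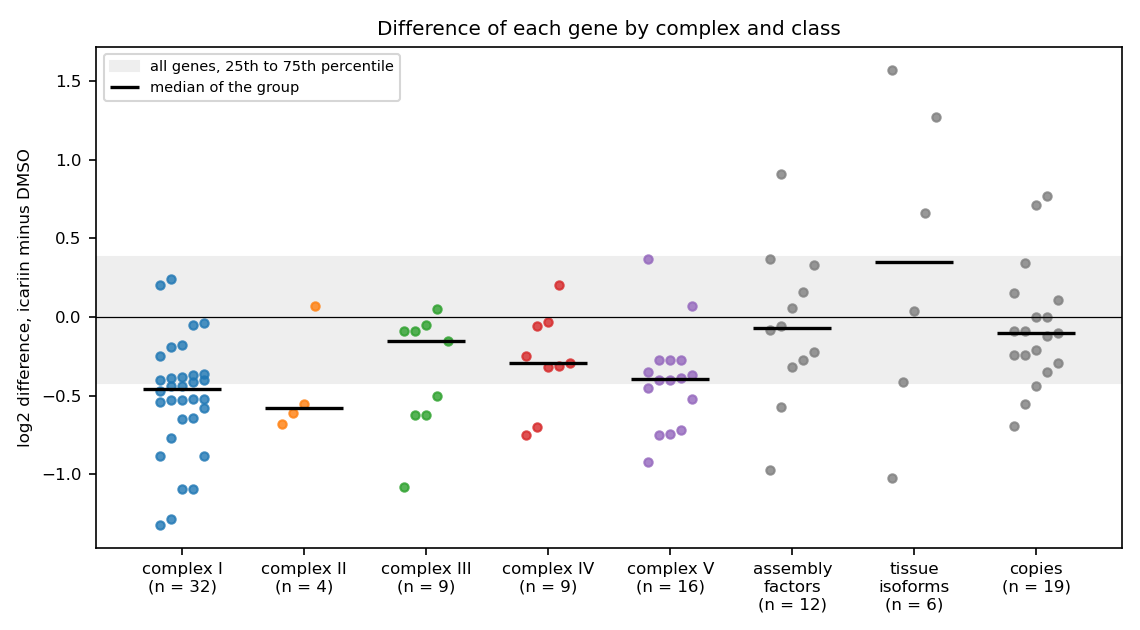
Log2 difference (icariin minus DMSO) of each gene, by complex for the 70 structural subunits and by class for 12 assembly factors, 6 tissue isoforms and 19 copies; black bars are group medians and the grey band spans the 25th to 75th percentile of all genes. The medians of complexes I to V are -0.46, -0.58, -0.15, -0.29 and -0.39, and those of the 3 other classes are -0.07, 0.35 and -0.10.

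Promoter sequences are shown for a choice of subunits. They are the 5 at least 2-fold lower, a share of the subunits close to that over all genes, and the largest rises of complexes I and V. Atp5me is added, whose window, like that of Atp5mg, holds motifs of both NRF1 and GABPA. All are RefSeq sequences of the GRCr8 assembly, 250 bases before to 50 after the start of the gene, on the strand of the gene and 5′ to 3′. Capitals mark the letters of motifs known for transcription factors of mitochondrial genes, searched on both strands: NRF1 (GCGCATGCG), the ETS motif of GABPA (CCGGAAG, or CTTCCGG on the other strand), YY1 (AANATGGCG) and the estrogen-related receptor ERR (CAAGGTCA, or TGACCTTG on the other strand). A match is a run of letters and not a proven site. Positions are counted from the first base of the gene, which is 0, to the first base of the match.

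Complex I, NADH dehydrogenase, has 32 of the 70 subunits and held 4 of the 5 at least 2-fold lower. Of its 32 subunits, 30 were lower and 2 higher on the icariin array, with a median of -0.46. At least 1.5-fold lower were 9 of them. Among all genes, 51.4% were lower, 17.8% at least 1.5-fold lower and 7.01% at least 2-fold lower. Ndufa9, an accessory subunit that binds NADPH near the ubiquinone pocket, read 502 on the icariin array and 1256 on the DMSO array, a log2 difference of -1.32. Ndufs8, a core subunit with iron-sulfur clusters that lead electrons towards ubiquinone, read 292 on the icariin array and 710.3 on the DMSO array, 2.43-fold lower. Both belong to the part of the enzyme where ubiquinone is reduced. Ndufb7, an accessory subunit of the membrane arm on the side of the intermembrane space, read 376 and 802 on the icariin and DMSO arrays (-1.09). Ndufa6, which binds the mitochondrial acyl carrier protein, read 574 on the icariin array and 1220.4 on the DMSO array (-1.09). The promoters of these 4 genes follow, with 1 YY1 match in Ndufa9, at 10, 1 ETS match in Ndufs8, at -12, 1 ETS match in Ndufb7, at -16, and in Ndufa6 an ETS match at -190 and a YY1 match at 15.
Ndufa9 (chr4:161374121-161374420, minus strand): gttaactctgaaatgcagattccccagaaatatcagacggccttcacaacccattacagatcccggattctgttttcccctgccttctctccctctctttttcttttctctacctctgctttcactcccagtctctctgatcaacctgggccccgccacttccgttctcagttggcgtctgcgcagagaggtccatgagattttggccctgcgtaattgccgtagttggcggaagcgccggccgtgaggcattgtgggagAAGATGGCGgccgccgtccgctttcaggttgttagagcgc
Ndufs8 (chr1:210573649-210573948, minus strand): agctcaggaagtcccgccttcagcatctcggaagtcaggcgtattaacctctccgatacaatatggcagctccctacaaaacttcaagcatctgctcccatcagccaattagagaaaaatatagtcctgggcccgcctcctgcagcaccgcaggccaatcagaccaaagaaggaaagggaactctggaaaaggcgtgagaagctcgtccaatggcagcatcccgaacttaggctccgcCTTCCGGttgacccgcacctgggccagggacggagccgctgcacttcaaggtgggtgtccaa
Ndufb7 (chr19:41477242-41477541, minus strand): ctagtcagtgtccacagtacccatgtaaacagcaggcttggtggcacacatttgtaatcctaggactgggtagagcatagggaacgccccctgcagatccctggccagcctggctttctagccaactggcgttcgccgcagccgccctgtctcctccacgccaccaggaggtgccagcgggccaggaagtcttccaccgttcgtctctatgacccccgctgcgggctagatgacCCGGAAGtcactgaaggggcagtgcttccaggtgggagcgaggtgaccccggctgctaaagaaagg
Ndufa6 (chr7:115750268-115750567, minus strand): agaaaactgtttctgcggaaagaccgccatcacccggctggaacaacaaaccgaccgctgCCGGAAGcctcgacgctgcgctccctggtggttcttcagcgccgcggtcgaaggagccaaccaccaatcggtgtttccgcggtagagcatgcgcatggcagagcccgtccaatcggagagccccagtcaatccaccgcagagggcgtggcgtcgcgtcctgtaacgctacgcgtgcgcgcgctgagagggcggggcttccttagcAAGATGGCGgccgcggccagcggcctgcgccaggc

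The 7 core subunits of complex I encoded in the nucleus, which include those with the redox groups and are kept from bacteria to mammals, were all lower. Besides Ndufs8, at least 1.5-fold differences were found for Ndufs3, a core subunit without redox group, at 543 on the icariin array and 925 on the DMSO array, and for Ndufv2, which holds an iron-sulfur cluster close to the NADH site, at 873 and 1366. The core median was -0.53, and the smallest difference was that of Ndufv1, the flavoprotein that oxidizes NADH, at 2213 on the icariin array and 3004 on the DMSO array (-0.44). The core genes thus spanned 1.36-fold to 2.43-fold lower, without one that was higher.

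The 9 accessory subunits of the Ndufb family, which belong to the membrane arm, were also all lower, with differences between -1.09 and -0.36 and a median of -0.44. Next to Ndufb7 stood Ndufb9, a LYR motif protein, at 576 on the icariin array and 1059 on the DMSO array (1.84-fold lower). Ndufb8 lay just outside the 1.5-fold limit at 1.49-fold, with 1529 on the icariin array and 2282 on the DMSO array. Of the 5 accessory subunits with other names, Ndufs5 had the largest difference, with 315 on the icariin array and 578 on the DMSO array (-0.88), and Ndufs4, often mutated in human Leigh syndrome, differed least (229 and 262, -0.19).

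The Ndufa subunits were the mixed group of complex I. Of 11, counted with the acyl carrier protein Ndufab1 (704 on the icariin array and 1097 on the DMSO array), 9 were lower and 2 higher, with a median of -0.39. Ndufa10 and Ndufa8, accessory subunits at the membrane arm, differed little, by -0.04 and -0.05. Ndufa11, a membrane subunit at the contact with complex III in the supercomplex, read 2044 on the icariin array and 1731 on the DMSO array (0.24). Ndufa2, of the NADH-oxidizing end, read 347 on the icariin array and 301 on the DMSO array (0.20). Within the Ndufa family the differences therefore ran between -1.32 and 0.24. The Ndufa11 window holds a tandem of the NRF1 letters, with matches at -97 and -91 and their reverse strand copies at -96 and -90.
Ndufa11 (chr9:1637364-1637663, plus strand): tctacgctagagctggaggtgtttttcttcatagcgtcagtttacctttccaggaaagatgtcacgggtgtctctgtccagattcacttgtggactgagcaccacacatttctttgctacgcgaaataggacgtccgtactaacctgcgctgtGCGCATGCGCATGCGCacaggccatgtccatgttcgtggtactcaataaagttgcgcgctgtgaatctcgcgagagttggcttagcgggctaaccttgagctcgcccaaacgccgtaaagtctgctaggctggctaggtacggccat

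Complex II, succinate dehydrogenase, is also an enzyme of the citrate cycle and has 4 subunits, none of them encoded in mitochondrial DNA. Its catalytic subunits were lower, namely Sdha, the flavoprotein that oxidizes succinate, at 2876 on the icariin array and 4386 on the DMSO array (-0.61), and Sdhb, the iron-sulfur subunit, at 734 and 1172 (-0.68). The membrane anchors that bind ubiquinone and heme differed from each other. Sdhd read 899.9 on the icariin array and 1314 on the DMSO array (-0.55), whereas Sdhc read 2697 and 2572 (0.07). Sdha marks the inner edge of the 1.5-fold limit at 1.53-fold lower.

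In complex III, the cytochrome bc1 complex, most subunits were close to level and a few were well below. Of 9 subunits, 8 were lower, 3 of them at least 1.5-fold, and the median was -0.15. Uqcrc2, a core protein on the matrix side, read 490.3 on the icariin array and 1034 on the DMSO array, 2.11-fold lower, the subunit just inside the 2-fold limit. Its partner in the same core, Uqcrc1, read 993 on the icariin array and 1030.5 on the DMSO array (-0.05). Thus the core pair stood at -1.08 and -0.05. The redox subunits were split as well: Uqcrfs1, the Rieske iron-sulfur protein, read 1313 on the icariin array and 2020.5 on the DMSO array (-0.62), and Cyc1, cytochrome c1, 889 and 856 (0.05). Of the small subunits, Uqcrb, which helps to form a ubiquinone site, read 1488 on the icariin array and 2290.2 on the DMSO array (-0.62), and Uqcr10 436 and 617 (-0.50). Uqcrq, Uqcrh, the hinge protein, and Uqcr11, which had the brightest signal of the complex (signals of different genes also depend on their probes) at 6905 on the icariin array and 7341 on the DMSO array, differed by -0.15, -0.09 and -0.09. The Uqcrc2 promoter holds 2 ETS matches, at -117 and -28.
Uqcrc2 (chr1:184598990-184599289, plus strand): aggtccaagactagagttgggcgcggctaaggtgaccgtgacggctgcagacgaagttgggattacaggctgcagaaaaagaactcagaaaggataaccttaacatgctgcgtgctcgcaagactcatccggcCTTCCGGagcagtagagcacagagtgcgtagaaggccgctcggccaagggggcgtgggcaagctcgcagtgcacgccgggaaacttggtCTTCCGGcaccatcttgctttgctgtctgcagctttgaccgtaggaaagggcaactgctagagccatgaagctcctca

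Complex IV, cytochrome c oxidase, has its catalytic core in mitochondrial DNA, and the 9 nuclear subunits measured surround that core. Of these, 8 were lower and 1 higher, 2 at least 1.5-fold lower, with a median of -0.29. Cox7a2, the ubiquitous form of subunit VIIa, read 421 on the icariin array and 709 on the DMSO array (-0.75), and Cox5a, a subunit on the matrix side, read 1808 and 2927 (-0.70). Cox4i1, the subunit through which ATP inhibits the enzyme, read 5236 on the icariin array and 6512 on the DMSO array (-0.31), and Cox6a1 read 5283 and 6601 (-0.32). Cox5b, with its zinc site, and Cox6c differed by -0.25 and -0.29. Nearly level were Cox7b (2001 on the icariin array and 2081 on the DMSO array) and Cox6b1, at the docking face for cytochrome c (6710.1 and 6854). Cox8a, a small subunit with 1 membrane span, was higher, at 3139.6 on the icariin array and 2736 on the DMSO array (0.20).

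Several subunits of the oxidase have a second gene that is used in certain tissues, and 6 such tissue isoforms were among the members. They did not follow the ubiquitous forms, but 5 of them had at least 1 value under the receptor level. Cox4i2, the form known from lung, read 585 on the icariin array and 568 on the DMSO array (0.04), and was the only one above the receptor level on both. Cox6a2, the form of heart and muscle, read 209 on the icariin array and 70.6 on the DMSO array, at least 1.25-fold higher when the dim value is raised to the receptor level of 168. Cox6b2 of testis (136 on the icariin array and 56.4 on the DMSO array) and Cox7a1 of heart and muscle (146 and 92.5) were under the receptor level on both. A further sequence that the array labels Cox6b2, counted here as Garin5b, read 63.5 on the icariin array and 126 on the DMSO array. Cox8b of heart and muscle read 73.5 on the icariin array and 149 on the DMSO array, and Cox8c of testis 91.8 and 122, so no ratio is given for these. Cox8b is the sixth of the 6 members at least 2-fold lower, and Cox6a2 and Cox6b2 are the 2 members at least 2-fold higher, and at least 1 value of each lies at background.

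**Figure D4:**
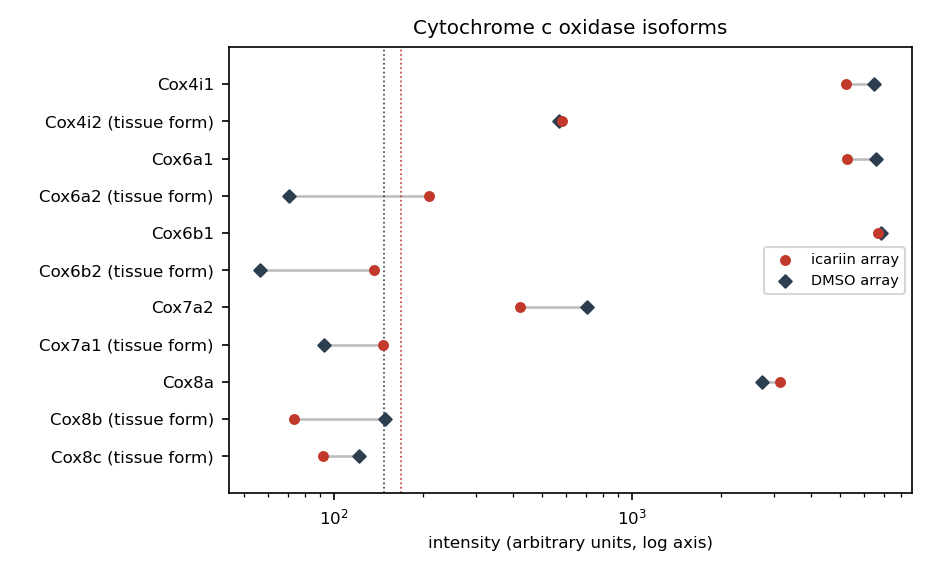
Intensity of 5 ubiquitous subunits of cytochrome c oxidase and their 6 tissue forms on the icariin array (red circles) and the DMSO array (dark diamonds), on a log axis in arbitrary units; dotted lines mark the receptor level of each array. Of the tissue forms, only Cox4i2 lies right of both lines on both arrays, at 585 and 568.

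Complex V, the ATP synthase, had 14 of 16 subunits lower, 4 of them at least 1.5-fold and none 2-fold, with a median of -0.39. The 5 subunits of the F1 head, which makes ATP, were all lower. Its catalytic subunit Atp5f1b read 7905 on the icariin array and 10805 on the DMSO array (-0.45), and Atp5f1a, the other subunit of the ring, 7004 and 8907 (-0.35). In the central stalk, Atp5f1d read 1159.7 on the icariin array and 1943 on the DMSO array (-0.74), while Atp5f1c and Atp5f1e both differed by -0.27. The head thus stood lower as a whole, with the largest difference in its stalk.

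The subunit c of the proton-driven ring is made from 3 genes, which differ in their import peptides and give the same mature protein. These genes differed in direction. Atp5mc1 read 1306 on the icariin array and 1690.3 on the DMSO array (-0.37), and Atp5mc2 1146 and 1648 (-0.52). Atp5mc3 read 4608 on the icariin array and 3570.1 on the DMSO array (0.37), the highest log2 difference of any subunit in the chain. In the peripheral stalk, which holds the head still, Atp5pb (1538 on the icariin array and 2528 on the DMSO array, -0.72), Atp5po (-0.40) and Atp5pf (-0.27) were lower, and Atp5pd was nearly level (3821 and 3631, 0.07). The 4 small membrane subunits were all lower, with Atp5mg at 652 on the icariin array and 1231 on the DMSO array (1.89-fold, just outside the 2-fold limit) and Atp5mf at 1872 and 3148 (-0.75). These proteins lie where synthase dimers bend the membrane, as does Atp5me, at 1124 on the icariin array and 1476 on the DMSO array (-0.39). Atp5if1, the peptide that blocks the synthase when it runs backwards, read 2003 on the icariin array and 2674 on the DMSO array (-0.42). Of the promoters below, that of Atp5mc3 holds an ERR match at -57, and that of Atp5me a NRF1 match at -76 (on the other strand at -75) and an ETS match at -11.
Atp5mc3 (chr3:79220615-79220914, minus strand): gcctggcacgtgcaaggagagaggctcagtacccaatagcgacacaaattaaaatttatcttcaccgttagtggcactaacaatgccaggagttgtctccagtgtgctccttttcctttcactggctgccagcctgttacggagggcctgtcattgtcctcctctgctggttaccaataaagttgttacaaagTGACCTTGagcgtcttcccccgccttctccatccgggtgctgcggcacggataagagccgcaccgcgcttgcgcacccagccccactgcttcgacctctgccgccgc
Atp5me (chr14:1464610-1464909, plus strand): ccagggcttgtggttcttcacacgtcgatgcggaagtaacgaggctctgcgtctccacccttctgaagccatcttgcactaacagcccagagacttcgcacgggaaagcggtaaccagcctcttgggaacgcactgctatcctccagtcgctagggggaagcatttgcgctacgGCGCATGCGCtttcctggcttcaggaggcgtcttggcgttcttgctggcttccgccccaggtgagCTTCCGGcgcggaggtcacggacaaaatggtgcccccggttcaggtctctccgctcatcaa

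The motifs were counted in the subunits' promoters and in all promoters, and the differences between the shares were not tested. Of the 70 subunits, 61 had a promoter in the RefSeq table. The ETS letters were found in 20 of these windows (32.8%), against 8.75% of the 33469 windows of all genes and 10.7% of 21851 windows of protein-coding genes. YY1 was found in 15 (24.6%), against 3.01% of all windows and 3.67% of those of protein-coding genes. NRF1 was found in 6 (9.84%), against 1.52% and 1.93%, and ERR in 4 (6.56%), against 1.52% and 1.26%. Sp1 (GGGCGG), searched as a motif common to many promoters, was found in 25 (41.0%), against 33.1% of all windows and 41.8% of those of protein-coding genes. The YY1 letters sat in a narrow place: 13 of the 15 subunits have them from 1 base before the start to the end of the window, a stretch in which 1.49% of all windows hold them. They include the letters ATG, and whether that is the start codon was not examined. Matches of different motifs overlapped in 0 of the 61 windows, NRF1 read on both strands being counted once per window.

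**Figure D5:**
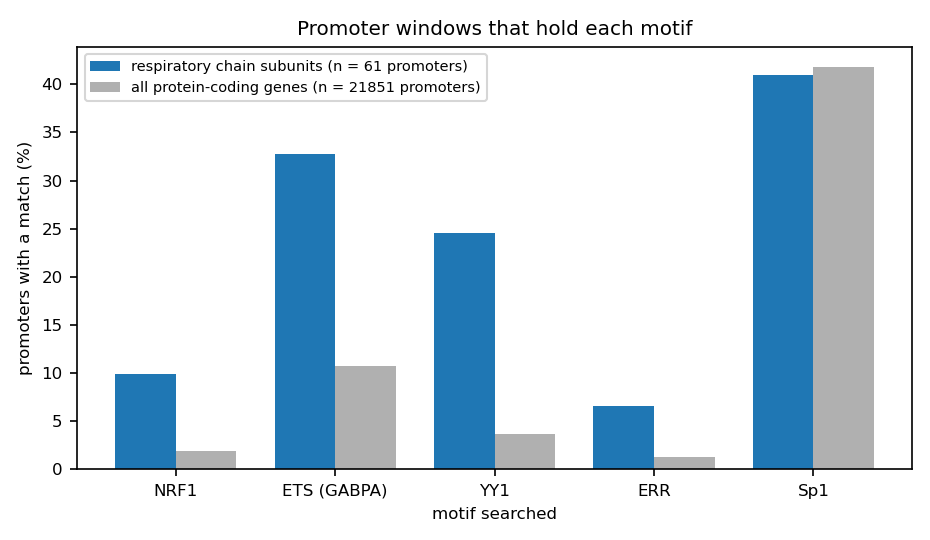
Share of promoter windows (percent) that hold each of the 5 motifs, for 61 respiratory chain subunits (left bar of each pair) and for 21851 windows of protein-coding genes (right bar). The shares for subunits are 9.84, 32.8, 24.6, 6.56 and 41.0%, in the order of the axis.

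Subunits with and without a motif were compared by their difference between the arrays. The median log2 difference was -0.40 in the 20 subunits with the ETS letters and -0.44 in the 41 without, -0.40 in the 6 with the NRF1 letters and -0.44 in the 55 without, and -0.52 in the 15 with the YY1 letters and -0.40 in the 46 without. With the ERR letters the 4 subunits had a median of -0.17, against -0.41 in the other 57. An ETS or a YY1 match was found in 30 of 61 subunits (49.2%), against 11.2% of all windows. The 5 subunits at least 2-fold lower are among them, but neither motif alone is in all 5. Ndufa9 has no ETS match, and Ndufs8, Ndufb7 and Uqcrc2 have no YY1 match. Large differences occurred with a match, as in Atp5mg (-0.92), and with neither motif, as in Ndufs5 (-0.88). Windows with an ETS or a YY1 match also hold 2 subunits that were higher, Ndufa2 and Cox8a. A link between motifs and differences was not tested.

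Part of the subunit genes start close to a gene that runs the other way. Of the 61 subunits, 17 (27.9%) have the start of another protein-coding gene within 1000 bases upstream on the other strand, against 6.99% of 19005 protein-coding genes. The neighbour exceeded the receptor level on each array for 10 of them, where 6 neighbours were lower and 4 higher, with a median of -0.22, against -0.42 for their 10 subunits. Some pairs differed in the same direction: Timm8b, a chaperone of mitochondrial import whose start lies 96 bases from that of Sdhd, read 839.9 on the icariin array and 1044 on the DMSO array (-0.31, with Sdhd at -0.55), and Eef1b2, an elongation factor next to Ndufs1, 1638 and 2044 (-0.32, with Ndufs1 at -0.52). Others differed in opposite directions. Emc8, a subunit of the membrane protein insertase of the endoplasmic reticulum, starts 148 bases from Cox4i1 and read 463 on the icariin array and 369 on the DMSO array (0.33, with Cox4i1 at -0.31). Mrpl47, a mitochondrial ribosomal protein that starts 244 bases from Ndufb5, read 652 on the icariin array and 223 on the DMSO array (1.54, with Ndufb5 at -0.44). Emc8 is also one of the 4 members that match only by the array's own symbol. Of the others only Upk1a, a uroplakin, was above the receptor level on an array (193 on the icariin array and 134 on the DMSO array, at least 1.15-fold higher).

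Assembly factors, which help to build the complexes and leave them, were followed for the 12 that the name rule takes. Of these, 7 were lower and 5 higher, with a median of -0.07, but only 5 exceeded the receptor level on each array. Ndufaf2, a chaperone of late complex I assembly, read 148 on the icariin array and 289 on the DMSO array (at least 1.73-fold lower). Ndufaf7, a methyltransferase of the matrix, read 328 on the icariin array and 175 on the DMSO array (1.88-fold higher). Ndufaf3, which works with Ndufaf4 in early assembly, read 412 on the icariin array and 516 on the DMSO array (-0.32), and Ndufaf4 193 and 153 (0.33). Sequences of the same gene disagreed for Ndufaf1 (-0.80 and 0.67) and Sdhaf4 (-0.85 and 0.31). The gene means were under the receptor level, but 1 Ndufaf1 sequence read 231 on the icariin array and 145 on the DMSO array. The 4 Sdhaf factors of complex II had values between 78.6 and 275 on the icariin array and 94.7 and 321 on the DMSO array, all lower. Of a further 40 assembly factors outside the name rule, 32 were measured, of which 22 were lower and 9 higher (median -0.19), with Coa7 and Timmdc1 at 1.75 and 1.61-fold lower, Cmc1 at least 1.43-fold lower and Bcs1l, which inserts the Rieske protein, at least 1.21-fold higher.

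Copies of subunit genes can share probes with their parents, so the values of such pairs are uncertain. Of the 19 copies, 12 were lower and 7 higher, with a median of -0.10. The complex III copies Uqcrbl1 (1581 on the icariin array and 2139 on the DMSO array) and Uqcrb-ps1 (1542 and 1824) were lower, as was their parent Uqcrb, and Ndufs6-ps1 (704 and 1138, -0.69) was lower as Ndufs6 was (821 and 1196, -0.54). Atp5hl1 read 1353 on the icariin array and 1975 on the DMSO array (-0.55), while its parent Atp5pd differed by 0.07. Atp5mgl4 was 1.63-fold higher (402 on the icariin array and 246 on the DMSO array), and its parent Atp5mg 1.89-fold lower. Parent and copy thus differed in the same direction in some pairs and in opposite directions in others. Cox7a2l, a paralogue of Cox7a2 that joins complexes III and IV, read 1181 on the icariin array and 1391 on the DMSO array (-0.24).

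Genes beside the chain were mixed. Of 22 genes for mobile carriers and other routes of electrons, 21 were measured, with 14 lower and 7 higher and a median of -0.15. Cycs, cytochrome c, was level at 1159 on the icariin array and 1138 on the DMSO array, and Etfa, which brings in electrons from fatty acid oxidation, read 784 and 1089.5 (-0.47). Dhodh, of pyrimidine synthesis, was at least 1.59-fold higher, and Coq6, of ubiquinone synthesis, 1.48-fold higher. Of 10 genes for ATP exchange, 9 were measured and 7 were lower (median -0.24): Ckmt1, the mitochondrial creatine kinase, read 542 on the icariin array and 1568 on the DMSO array (2.89-fold lower), and Slc25a5, an ADP/ATP carrier, 6086 and 8489.6 (-0.48). Of the 13 subunits encoded in mitochondrial DNA, 0 were matched to the array, and 8 of 78 listed nuclear subunits (Ndufa3, Ndufa13, Ndufb1, Ndufb10, Ndufc1, Ndufa4, Cox7c and Atp5mj) were likewise not analysed here.

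The regulators of mitochondrial genes were as often higher as lower. Of 26, 13 were lower and 13 higher, with a median of 0.02, and only 12 exceeded the receptor level on each array. Tfam, which packs and transcribes mitochondrial DNA, read 124 on the icariin array and 260.4 on the DMSO array (at least 1.55-fold lower), and Polrmt, the mitochondrial RNA polymerase, 389.5 and 187 (2.08-fold higher). Sirt3, the deacetylase of the matrix, was 1.85-fold lower and Tfb1m, a methyltransferase of mitochondrial ribosomal RNA, at least 1.16-fold higher. Of the factors whose motifs were searched, Nrf1 read 156 on the icariin array and 227 on the DMSO array (at least 1.35-fold lower), Gabpa 186 and 141 (at least 1.11-fold higher), Yy1 483 and 537 (-0.15) and Esrra 238 and 229 (0.06). Ppargc1a, the coactivator of mitochondrial biogenesis, was under the receptor level on both arrays (62.3 on the icariin array and 98.6 on the DMSO array).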

How the data were processed

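Gene expression was measured on 1 NimbleGen rat array per condition. The deposited values are intensity values on a linear scale, which the authors made by quantile normalization and the RMA algorithm in NimbleScan (version not given in the sources used here), with 1 value per sequence from 5 probes in most cases. Names came from RefSeq's genes of GRCr8 for 20681 sequences by gene identifier and for 31 by accession. The other 5707 took the symbol of the file, or the sequence's own identifier where the file gave no symbol. Of the 120 member sequences, 78 carry the matching symbol in the file and 42 only through the current name. One subunit of complex I enters the counts and is not reported here by itself. Values were taken to log2 and averaged per gene. The members, lists and classes were chosen with earlier results of these data known. Genes were named by their place in a complex, as the brightest, the largest falls and the largest rises of each, as every subunit at least 2-fold different and as isoform pairs. From the other lists, genes with the largest differences above the receptor level were named. Yy1 and some further members were chosen after their values were seen. A ratio whose dimmer value did not exceed its receptor level is printed as "at least", with values under 168 set to 168, which is a convention rather than a strict limit. With 1 array per condition no p-value, SE or SD was made, and the number of arrays limits the precision. Alternatives were the series' value table (20045 sequences), a loess on level (span 0.3), centring, the brightest sequence per gene, sequences in place of genes, 64 added to both values, the receptor floor, filters on members, the symbols of the file only, folds of 1.5 and 3, and a promoter window of 150 bases. The alternative without near-identical copies was added after seeing the data. Tools were Python 3.11.15, pandas 2.3.3, numpy 2.4.6, scipy 1.17.1 and statsmodels 0.14.6.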

Additional observations from a re-analysis of the deposited data

How the results depend on the processing

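No paired analysis was possible because each condition has 1 array. The number of lower members, 87 of 113, was between 80 (values raised to the receptor floor) and 86 (64 added) under the alternatives that keep all 113 members, and was 61 of 74 with the symbols of the file only, 77 of 94 above the receptor level on each array, 85 of 108 in the value table, 63 of 80 without near-identical copies and 90 of 120 over sequences. The number at least 1.5-fold lower, 24, was between 19 and 26. At least 2-fold lower were 6 members, against 3 with 64 added to both values and 0 at 3-fold. Removing the trend of the difference with level by loess gave a median of -0.38 for complex I, against -0.46. The median of complex III, -0.15, was -0.06 under the loess and -0.36 over the 6 subunits found by the symbols of the file only. No median of a complex changed sign under an alternative. In the 150 bases before the start site in place of the whole window, 2.22% of all members' promoters held the YY1 letters and 1.11% the ERR letters, against 18 and 4 of 90 members in the whole window. With the loess, 58 of 70 subunits were lower.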
